A study of Mus musculus with 17 samples.

Results

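Mature neutrophils carry calprotectin, surface receptors for bacterial peptides and growth factors, and a small set of secreted proteins, and 9 genes of that kind were followed here in mouse liver: S100a8, S100a9, Csf3r, Retnlg, Il1b, Trem1, Fpr1, Fpr2 and Clec4d. They were taken by gene symbol from the normalized count table, where all 9 were found among 48440 genes, and all 9 were among the 14588 genes with a mean normalized count of at least 10 that were tested. Polyadenylated RNA from whole liver was sequenced in 17 libraries. The groups were 6 libraries from miR-29 transgenic mice aged 2 months (TG_2mon), 5 from wild-type mice aged 2 years (WT_2year) and 6 from wild-type mice aged 2 months (WT_2mon). The wild-type mice are given as B6. For the transgenic mice the strain, the promoter and the cell type that drives the transgene, and which miR-29 it holds, are not given in the sources used here, and the labels name no agent. Levels of miR-29 itself were not analysed here. Batch A (10 libraries, TruSeq kit) held 3 TG_2mon, 3 WT_2year and 4 WT_2mon libraries, and batch B (7 libraries, NEBNext kit, all male, sequenced at another centre) held 3 TG_2mon, 2 WT_2year and 2 WT_2mon libraries. Females were TG_2mon replicate 3, WT_2year replicates 1 and 2, and WT_2mon replicates 3 and 4. No label says that each library came from its own animal, so the p-values measure the spread between these libraries.

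Neutrophils leave the bone marrow as mature cells and patrol the blood, and in liver they lodge in the sinusoids beside the resident macrophages, the Kupffer cells. Calprotectin, the complex of S100A8 and S100A9, is the main cytosolic protein of the neutrophil; it binds calcium, and withholds zinc and manganese from microbes. Myeloid cells such as neutrophils are its usual source, although hepatocytes and macrophages can make some of these RNAs. Which cells made them in these livers was not measured. In such bulk RNA, more cells of a type and more RNA per cell cannot be told apart.

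The 4 genes with the highest fold changes in the transgenic livers, S100a8, Retnlg, S100a9 and Trem1, are shown first by their promoters, from 250 bases before to 50 bases after the annotated start (RefSeq, GRCm38.p6, gene strand, 5′ to 3′). Capitals mark matches on either strand to GAGGAA, the core bound by PU.1, a transcription factor of myeloid cells (reverse complement TTCCTC), and to TTGCNNAA, a form bound by C/EBP factors (reverse complement TTNNGCAA).
S100a8 promoter, chr3:90668821-90669120, plus strand: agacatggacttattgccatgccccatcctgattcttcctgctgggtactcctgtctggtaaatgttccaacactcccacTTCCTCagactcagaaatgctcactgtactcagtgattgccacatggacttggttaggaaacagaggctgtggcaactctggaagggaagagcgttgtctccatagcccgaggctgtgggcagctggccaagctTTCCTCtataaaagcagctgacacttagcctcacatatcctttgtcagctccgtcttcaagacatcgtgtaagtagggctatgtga
Retnlg promoter, chr16:48872358-48872657, plus strand: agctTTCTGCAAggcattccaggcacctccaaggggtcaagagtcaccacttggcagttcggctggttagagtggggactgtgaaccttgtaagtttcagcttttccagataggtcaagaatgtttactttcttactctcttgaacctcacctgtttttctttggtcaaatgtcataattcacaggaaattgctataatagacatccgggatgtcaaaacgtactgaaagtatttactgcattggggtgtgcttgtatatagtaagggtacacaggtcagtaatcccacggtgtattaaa
S100a9 promoter, chr3:90695672-90695971, minus strand: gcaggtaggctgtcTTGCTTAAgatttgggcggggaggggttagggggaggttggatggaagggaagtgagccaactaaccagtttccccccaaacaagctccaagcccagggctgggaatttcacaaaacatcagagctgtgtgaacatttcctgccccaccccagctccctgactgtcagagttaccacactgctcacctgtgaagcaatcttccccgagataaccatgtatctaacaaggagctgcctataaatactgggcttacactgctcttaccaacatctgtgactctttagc
Trem1 promoter, chr17:48232489-48232788, plus strand: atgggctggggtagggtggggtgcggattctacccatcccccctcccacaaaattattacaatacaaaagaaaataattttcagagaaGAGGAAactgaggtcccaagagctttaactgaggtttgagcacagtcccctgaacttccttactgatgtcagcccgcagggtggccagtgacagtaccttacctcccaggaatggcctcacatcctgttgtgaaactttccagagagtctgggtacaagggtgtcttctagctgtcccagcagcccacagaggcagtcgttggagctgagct
No match of one motif overlapped a match of the other in these 4 windows. GAGGAA was found in 5 of the 9 member promoters, those of S100a8, Csf3r, Trem1, Fpr2 and Clec4d, and in 28.3% of 32851 promoters of the same length. TTGCNNAA was found in 2 of 9, those of S100a9 and Retnlg, and in 10.8% of the 32851. In the S100a8 promoter the GAGGAA matches began 170 and 36 bases before the start. These are matches of letters, and binding was not measured.

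The miR-29 family shares the seed AGCACCA, given in capitals in the mature mouse sequences (RefSeq, GRCm38.p6), with miR-29a on chr6:31062673-31062694 (minus strand), this copy of miR-29b on chr1:195037091-195037113 and miR-29c on chr1:195037600-195037621 (both plus strand).
mmu-miR-29a-3p: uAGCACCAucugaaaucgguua
mmu-miR-29b-3p: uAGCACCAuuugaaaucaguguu
mmu-miR-29c-3p: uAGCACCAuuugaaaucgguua
The DNA letters that pair with this seed, TGGTGCT, were found in the longest 3′ untranslated region (GENCODE M21) of 1 of the 9 genes, Trem1, and in 13.2% of the 20848 genes with such a region. The Trem1 match starts at base 1384 of a region of 2276 bases on chromosome 17, and capitals mark it here with the bases around it.
Trem1 site: ccactttgggtTGGTGCTctgggacacgtc

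The first question was what young transgenic livers showed against young wild-type livers. S100a8, S100a9, Retnlg, Trem1, Clec4d and Csf3r rose in TG_2mon livers, with log2 fold changes between 2.29 and 5.14. That is 6 of 9 genes, where 2.89% of all 14588 tested genes rose and 6.71% passed in either direction (limma on log2(normalized count + 1) with batch and sex as covariates, two-sided, Benjamini-Hochberg adjusted p under 0.05 over all tested genes). The 9 genes were chosen with earlier results of these data known, and Trem1 reached a mean of 10 in the transgenic group alone. The shares are therefore given for scale and are no test of the 9 as a set. Fpr2, Il1b and Fpr1 did not pass. At an unadjusted p under 0.05, 7 of the 9 were higher, where 10.3% of tested genes were. The median log2 fold change of the 9 was 3.37, against 0.01 over all tested genes. All values below are the authors' normalized counts, each a count divided by the library's size factor, and fold changes are on the log2(normalized count + 1) scale, which understates those of genes near 0.

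**Figure D1:**
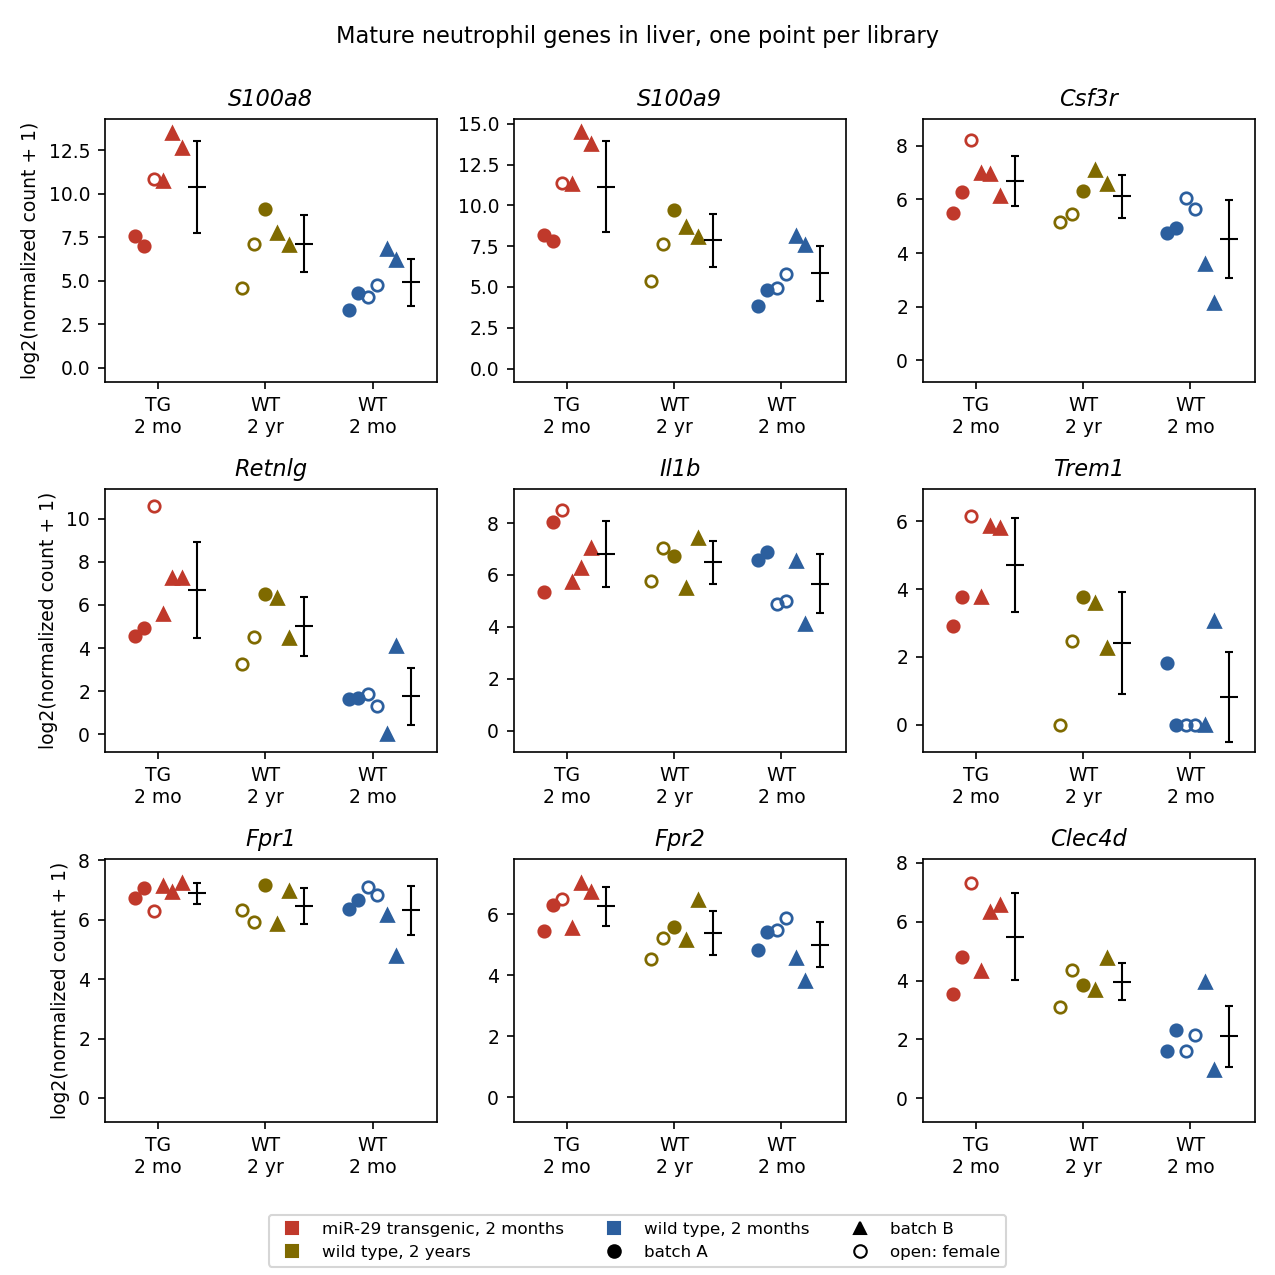
Values of the 9 genes in each library as log2(normalized count + 1), with TG_2mon, WT_2year and WT_2mon from left to right, circles for batch A, triangles for batch B and open symbols for females; the bars beside the points give the mean ± SD (n = 6, 5 and 6). For S100a8 and Retnlg all 6 TG_2mon points lie above all 6 WT_2mon points, whereas the Fpr1 points of the 3 groups cover much the same range.

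The calprotectin subunits came first by level. S100a8 (chr3:90668978-90670035, plus strand, GRCm38) encodes the smaller calcium-binding subunit. Its normalized counts ran from 127 through a median of 1798 to 11593 in TG_2mon livers. In WT_2mon livers the lowest, median and highest values were 8.95, 22.3 and 113. The groups did not overlap: the 3 TG_2mon libraries of batch B and the female of batch A held 1732 or more, and the other 2 of batch A held 127 and 188. Its log2 fold change was 5.14 ± 0.82 (SE; limma adjusted p = 0.00104). Group means were 3652 ± 4516 in TG_2mon and 42.5 ± 41.4 in WT_2mon (SD, n = 6 each). Within batch A the log2 fold change was 4.43, where it did not pass alone (limma adjusted p = 0.0530), and within batch B it was 5.78. Over the alternatives tried, the adjusted p for S100a8 lay between 5.93e-25, in the authors' deposited table, and 0.0530.

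S100a9 (chr3:90692632-90695721, minus strand) encodes the partner subunit and lies 22.6 kb from S100a8 with no other annotated gene between them. It held 223, 2591 and 23020.3 normalized counts at the lowest, median and highest in TG_2mon livers, against 13.1, 41.7 and 279 in WT_2mon livers. In 5 of the 6 transgenic libraries the value was above every WT_2mon value, and TG_2mon replicate 2 (223) lay below WT_2mon replicate 5 (279). For S100a9 the log2 fold change was 4.92 ± 0.81 (SE; limma adjusted p = 0.00135), with 4.36 in batch A and 5.34 in batch B. Among WT_2mon livers, the 2 libraries of batch B held 279 and 189.6 normalized counts of S100a9, more than the 13.1 to 54.2 of the 4 libraries of batch A.

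Csf3r (chr4:126024550-126044440, plus strand) encodes the receptor for G-CSF, the growth factor that drives neutrophil output. It ran from 44.4 through a median of 99.5 to 293 in TG_2mon livers, against 3.34, 27.7 and 65.1 in WT_2mon livers. In 5 of 6 transgenic libraries it was above all WT_2mon libraries. On the log2 scale Csf3r differed by 2.29 ± 0.59 (SE; limma adjusted p = 0.0284), with 1.45 in batch A and 3.83 in batch B. Here the WT_2mon libraries of batch B were the lowest, at 11.01 and 3.34, against 25.6 to 65.1 in batch A, the opposite of their order for S100a9. This call was the least firm of the 6. The adjusted p was 0.0504 to 0.0963 without WT_2mon replicate 5 or 6 or without TG_2mon replicate 3, 4 or 5, it was 0.0514 with no filter on low values and 0.0635 with no covariates, and over every alternative tried it lay between 1.42e-06, in the authors' deposited table, and 0.170.

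Of the secreted proteins, Retnlg (chr16:48872621-48874496, plus strand) encodes resistin-like gamma, which in mice marks mature neutrophils. It held 22.3, 98.7 and 1527 normalized counts at the lowest, median and highest in TG_2mon livers, against 0, 2.15 and 16.2 in WT_2mon livers. The groups did not overlap, and TG_2mon replicate 3, the female, stood far above the other 5, whose highest value was 152. The log2 fold change was 4.94 ± 0.93 (SE; limma adjusted p = 0.00362), and without that library it was 3.75 and still passed. It was 5.22 in batch A and 4.65 in batch B, and passed in neither batch alone (limma adjusted p = 0.0519 and 0.0861; 4.38e-05, in the authors' deposited table, to 0.0861 over all alternatives).

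Il1b (chr2:129364570-129371139, minus strand) encodes interleukin-1 beta, an inflammatory cytokine that macrophages also make. It held 39.6, 103 and 364 normalized counts at the lowest, median and highest in TG_2mon livers, and 16.4, 61.7 and 116 in WT_2mon livers. The ranges overlapped, with 3 of 6 transgenic libraries above all WT_2mon libraries. The log2 fold change of 1.21 ± 0.59 (SE) did not pass (limma adjusted p = 0.258).

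Among the receptors, Trem1 (chr17:48232768-48246924, plus strand) encodes an activating receptor that signals through the adaptor encoded by Tyrobp. It was 6.59, 33.9 and 70.3 at the lowest, median and highest in TG_2mon livers, whereas 4 of 6 WT_2mon libraries were listed at 0 and the highest held 7.35. In 5 of 6 transgenic libraries it exceeded all WT_2mon libraries. Its log2 fold change was 3.72 ± 0.79 (SE; limma adjusted p = 0.00840). Trem1 reached a mean of 10 in the transgenic group alone (35.7, against 6.40 in WT_2year and 1.64 in WT_2mon), and it also passed with no filter on low values.

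Clec4d (chr6:123262111-123275265, plus strand) encodes a C-type lectin receptor for microbial glycolipids. Its values were 10.6, 53.0 and 160.4 at the lowest, median and highest in TG_2mon livers, against 0.946, 2.75 and 14.6 in WT_2mon livers. In 5 of 6 transgenic libraries it was above all WT_2mon libraries, and WT_2mon replicate 5 alone overlapped with TG_2mon replicate 1. For Clec4d the log2 fold change was 3.37 ± 0.62 (SE; limma adjusted p = 0.00326), with 3.44 in batch A and 3.29 in batch B.

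Fpr1 (chr17:17876471-17883940, minus strand) and Fpr2 (chr17:17887824-17893952, plus strand) encode receptors for formylated bacterial peptides and lie 3.88 kb apart with no annotated gene between them. Fpr2 held 42.7, 84.0 and 128 normalized counts at the lowest, median and highest in TG_2mon livers, against 13.2, 34.7 and 58.3 in WT_2mon livers. Of the transgenic libraries, 4 of 6 were above every WT_2mon library, and the log2 fold change of 1.29 ± 0.42 (SE) did not pass (limma adjusted p = 0.0784). The authors' deposited table gives Fpr2 a log2 fold change of 1.43 ± 0.41 (SE) with an adjusted p of 0.00577, and calls 7 of the 9 genes in all.

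Fpr1 was the gene that differed least. It held 76.8, 126 and 151 normalized counts at the lowest, median and highest in TG_2mon livers, against 26.3, 91.3 and 136 in WT_2mon livers. The log2 fold change was 0.61 ± 0.36 (SE; limma adjusted p = 0.365), with -0.10 in batch A and 1.64 in batch B. TG_2mon replicate 3, which was highest of its group for Csf3r, Retnlg, Il1b, Trem1 and Clec4d, was the lowest of its group for Fpr1.

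The batches were compared directly by a transgene-by-batch interaction in limma. None of the 9 genes passed (0.658% of all tested genes did), and 2 had an unadjusted p under 0.05, Csf3r (2.25 ± 0.72 SE on the log2 scale, limma adjusted p = 0.162) and Fpr1 (1.69 ± 0.58, limma adjusted p = 0.183). Complete separation, with every TG_2mon library above every WT_2mon library, held for 2 of 9 genes over both batches, where 1.11% of all tested genes did so. Within batch A it held for 5 of 9 genes, against 8.52% of tested genes, and within batch B for 8 of 9, all but Il1b, against 19.8%. In males alone the same 6 genes passed.

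**Figure D2:**
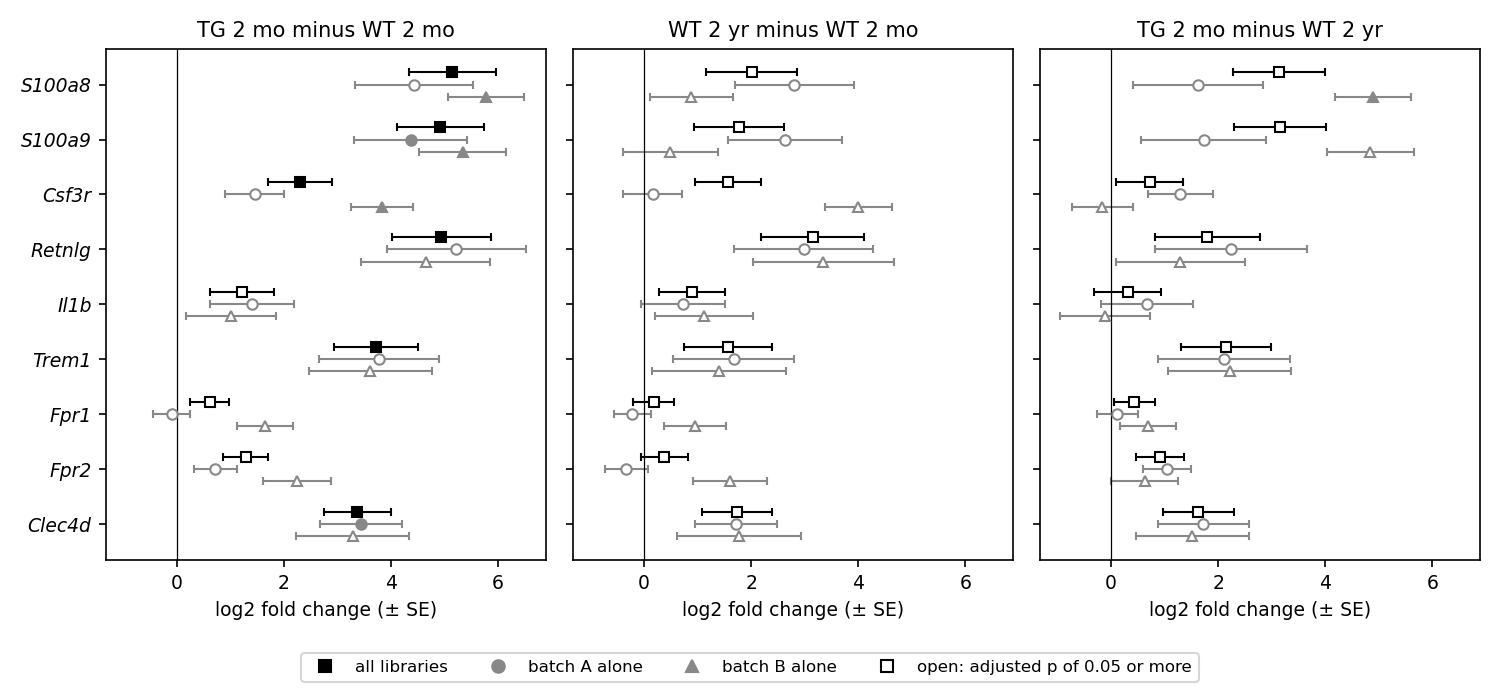
Log2 fold changes ± SE of the 9 genes for TG_2mon minus WT_2mon, WT_2year minus WT_2mon and TG_2mon minus WT_2year, from all libraries (squares), batch A alone (circles) and batch B alone (triangles), with filled symbols where the limma adjusted p was under 0.05. Filled squares appear for 6 genes in the first panel and for none in the other 2 panels.

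The second comparison asked how old and young wild-type livers differed. None of the 9 genes passed the test in WT_2year against WT_2mon livers, where 0.144% of all tested genes passed (0.096% as higher and 0.048% as lower). All 9 had a higher mean in WT_2year livers, and 4 (Retnlg, Clec4d, Csf3r and S100a8) had an unadjusted p under 0.05, where 4.56% of tested genes were higher at that level. The median log2 fold change of the 9 was 1.57, against 0.00 over all tested genes. No gene had all WT_2year libraries above all WT_2mon libraries (0.35% of tested genes did). Within batch B, S100a8, Csf3r, Retnlg and Fpr2 did, 4 of 9, against 29.1% of tested genes. This comparison and the transgenic one share the WT_2mon libraries.

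Retnlg had the largest difference with age. The WT_2year livers held 8.64, 21.5, 89.2, 80.3 and 21.1 normalized counts (replicates 1 to 5), against 0, 2.15 and 16.2 at the lowest, median and highest of WT_2mon. Replicate 1 of the old group alone overlapped with the young group, and only with its highest library. On the log2 scale it differed by 3.15 ± 0.97 (SE; limma adjusted p = 0.346). For Clec4d the WT_2year values were 7.66, 19.4, 13.5, 11.9 and 26.4, against 0.946 to 14.6 in WT_2mon livers, and the log2 difference was 1.74 ± 0.65 (SE; limma adjusted p = 0.492). Within batch A both of these genes separated the old from the young livers completely, as did 3.25% of tested genes.

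Csf3r held 34.7, 43.0, 77.9, 137 and 95.5 normalized counts in WT_2year livers, against 3.34 to 65.1 in WT_2mon livers, a log2 difference of 1.57 ± 0.62 (SE; limma adjusted p = 0.530). That difference was 0.16 in batch A and 3.998 in batch B, where the WT_2mon libraries were lowest. S100a8 held 23.2, 140.1, 569, 215 and 132 in WT_2year livers, against 8.95 to 113 in WT_2mon livers, a log2 difference of 2.01 ± 0.85 (SE; limma adjusted p = 0.536). S100a9 held 39.5, 195, 827, 399.6 and 263 in WT_2year livers, against 13.1 to 279 in WT_2mon livers, with 1.77 ± 0.84 (SE; limma adjusted p = 0.572).

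For both calprotectin genes WT_2year replicate 3 was the highest old library and replicate 1 the lowest, and without replicate 3 the log2 fold changes were 0.75 for S100a8 and 0.49 for S100a9. The authors' deposited table calls 3 of the 9 genes with age: Retnlg with a log2 fold change of 3.45 ± 0.77 (SE; adjusted p = 0.00129), S100a8 with 2.49 ± 0.63 (adjusted p = 0.0102) and S100a9 with 2.13 ± 0.64 (adjusted p = 0.0499). It does not list Trem1.

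The other 4 genes had the highest limma adjusted p of the 9 with age. Trem1 was listed at 0 in WT_2year replicate 1 and held 4.51, 12.6, 11.1 and 3.82 in replicates 2 to 5, a log2 difference of 1.57 ± 0.82 (SE; limma adjusted p = 0.592). Il1b held 53.2, 132, 105, 44.0 and 170.1 in WT_2year livers, with 0.90 ± 0.62 (limma adjusted p = 0.656). Both overlapped widely with the WT_2mon values above.

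Fpr2 held 22.4, 36.2, 46.7, 34.4 and 88.6 in WT_2year livers, with a log2 difference of 0.37 ± 0.44 (SE; limma adjusted p = 0.782). Fpr1 held 80.2, 59.1, 144, 57.2 and 124 in WT_2year livers, with 0.18 ± 0.38 (limma adjusted p = 0.886). Within batch A the 2 differences were -0.33 for Fpr2 and -0.22 for Fpr1.

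The third comparison set young transgenic against old wild-type livers. None of the 9 genes passed in TG_2mon against WT_2year livers, where 2.55% of tested genes passed (0.713% as higher and 1.84% as lower). In all 9 the group means ran TG_2mon, WT_2year, WT_2mon from high to low, and 4 of the 9, S100a9, S100a8, Trem1 and Clec4d, were higher in TG_2mon at an unadjusted p under 0.05, where 6.5% of tested genes were. The calprotectin genes came closest to the threshold: S100a9 differed by 3.15 ± 0.86 (log2, SE; limma adjusted p = 0.0607) and S100a8 by 3.13 ± 0.86 (limma adjusted p = 0.0650). Trem1 differed by 2.15 ± 0.83, Retnlg by 1.79 ± 0.98, Clec4d by 1.63 ± 0.66 and Fpr2 by 0.91 ± 0.44, with limma adjusted p between 0.218 and 0.407. For Csf3r (0.72 ± 0.63), Fpr1 (0.43 ± 0.38) and Il1b (0.31 ± 0.63) the difference was close to or under its standard error. No gene had all TG_2mon libraries above all WT_2year libraries, where 0.672% of tested genes did.

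Single libraries decided the call on calprotectin here. Without WT_2year replicate 3 the differences were 4.42 for S100a8 and 4.46 for S100a9, and both passed (limma adjusted p = 0.00270 and 0.00193). Both also passed without TG_2mon replicate 1 (3.42 and 3.42) and without TG_2mon replicate 2 (3.54 and 3.50), with limma adjusted p between 0.0435 and 0.0484, and S100a9 alone passed without TG_2mon replicate 4 (3.42, limma adjusted p = 0.0466). Over the alternatives, the adjusted p ran from 0.00270 to 0.526 for S100a8 and from 0.00193 to 0.484 for S100a9. The difference in S100a8 was 1.63 within batch A and 4.90 within batch B, and that in S100a9 was 1.73 and 4.84. In batch B all 3 transgenic libraries lay above both WT_2year libraries for S100a8, S100a9 and Trem1, where 13.2% of tested genes did so, and in batch A no member separated, where 7.63% of tested genes did.

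The calprotectin transcripts kept close to each other in ratio. S100a8 over S100a9 averaged 0.596 ± 0.1003 in TG_2mon, 0.607 ± 0.094 in WT_2year and 0.528 ± 0.130 in WT_2mon livers (SD, n = 6, 5 and 6), while S100a9 itself ranged from 13.1 to 23020.3. The log2 ratio differed by 0.26 between TG_2mon and WT_2mon (exact permutation within batch and sex, two-sided, p = 0.111, adjusted over the 3 comparisons 0.167), by 0.28 between WT_2year and WT_2mon (exact p = 0.0185, adjusted 0.0556) and by 0.01 between TG_2mon and WT_2year (exact p = 0.933, adjusted 0.933). The smallest p these designs allow is 0.00556, 0.00926 and 0.0111.

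S100a9 over Retnlg was far less even. It ran from 1.73 to 153 in TG_2mon livers, from 4.58 to 12.4 in WT_2year livers, and from 6.26 to 36.7 in the 5 WT_2mon livers where Retnlg was above 0. The low of 1.73 was TG_2mon replicate 3. These ratios were not tested.

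**Figure D3:**
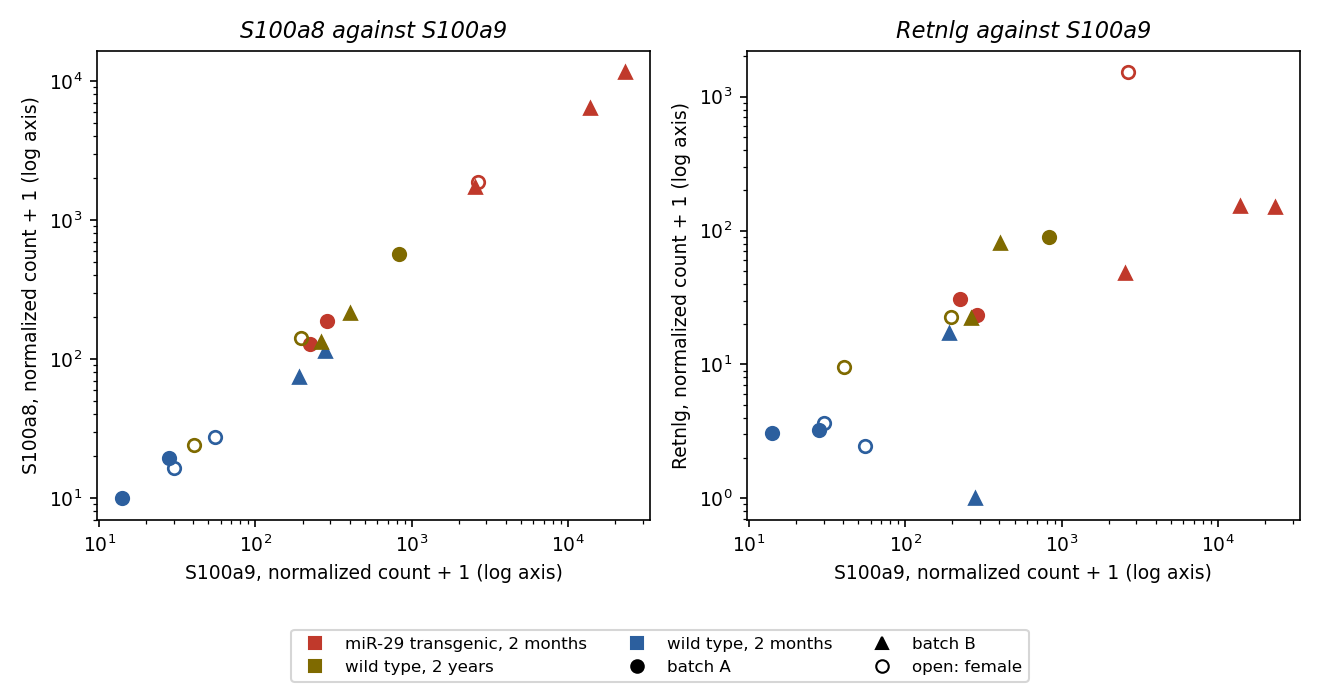
S100a8 (left) and Retnlg (right) against S100a9 in each library, as normalized count + 1 on log axes, with colours for the groups, circles for batch A, triangles for batch B and open symbols for females. S100a8 follows S100a9 over the whole range, whereas Retnlg in TG_2mon replicate 3 (1527 normalized counts) lies well above the other libraries with similar S100a9.

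Per kilobase of exon, S100a9 and S100a8 were the most abundant of the 9 in TG_2mon livers, with medians of 4964 and 2590 normalized counts per kilobase. Retnlg (167), Fpr1 (95.5), Fpr2 (64.8), Il1b (53.9), Clec4d (33.2), Csf3r (27.6) and Trem1 (11.3) came after them. In WT_2mon livers the medians per kilobase were 79.9 for S100a9, 69.0 for Fpr1, 32.3 for Il1b, 32.1 for S100a8, 26.8 for Fpr2, 7.67 for Csf3r, 3.63 for Retnlg, 1.72 for Clec4d and 0 for Trem1. Fpr1 thus stood next to S100a9 in young wild-type livers and after Retnlg in the transgenic ones, and neighbours in these orders overlapped between libraries.

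The transgenic libraries did not all show the same neutrophil genes. TG_2mon replicate 3 held 247 normalized counts of Cxcr2, the chemokine receptor of mature neutrophils, and 264 of the gelatinase gene Mmp9, but 15.9 of the myeloperoxidase gene Mpo and 0 of the elastase gene Elane, which are transcribed in neutrophil precursors. Mpo was still above every WT_2mon library there, as were other granule genes made in precursors. In that replicate Ngp held 414 (at most 24.4 in WT_2mon), Camp 125 (at most 11.5) and Ltf 92.8 (at most 44.98). The 3 batch B libraries, replicates 4 to 6, held 950.1, 3506 and 913 of Mpo and 256, 659.7 and 187 of Elane, with 567.5, 1670.2 and 161 of Ngp. Replicates 1 and 2, which had the lowest calprotectin, held 9.99 and 2.96 of Mpo and 15.8 and 3.09 of Elane. In WT_2mon livers Mpo reached at most 7.51 and Elane at most 11.9. Ly6g, the defining surface marker of mouse neutrophils, was at 0.653, 0, 6.19, 32.7, 47.8 and 13.02 in TG_2mon replicates 1 to 6. It was at 0, 2.87, 2.31, 6.16 and 1.86 in WT_2year replicates 1 to 5, and at 0 in every WT_2mon library.

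**Figure D4:**
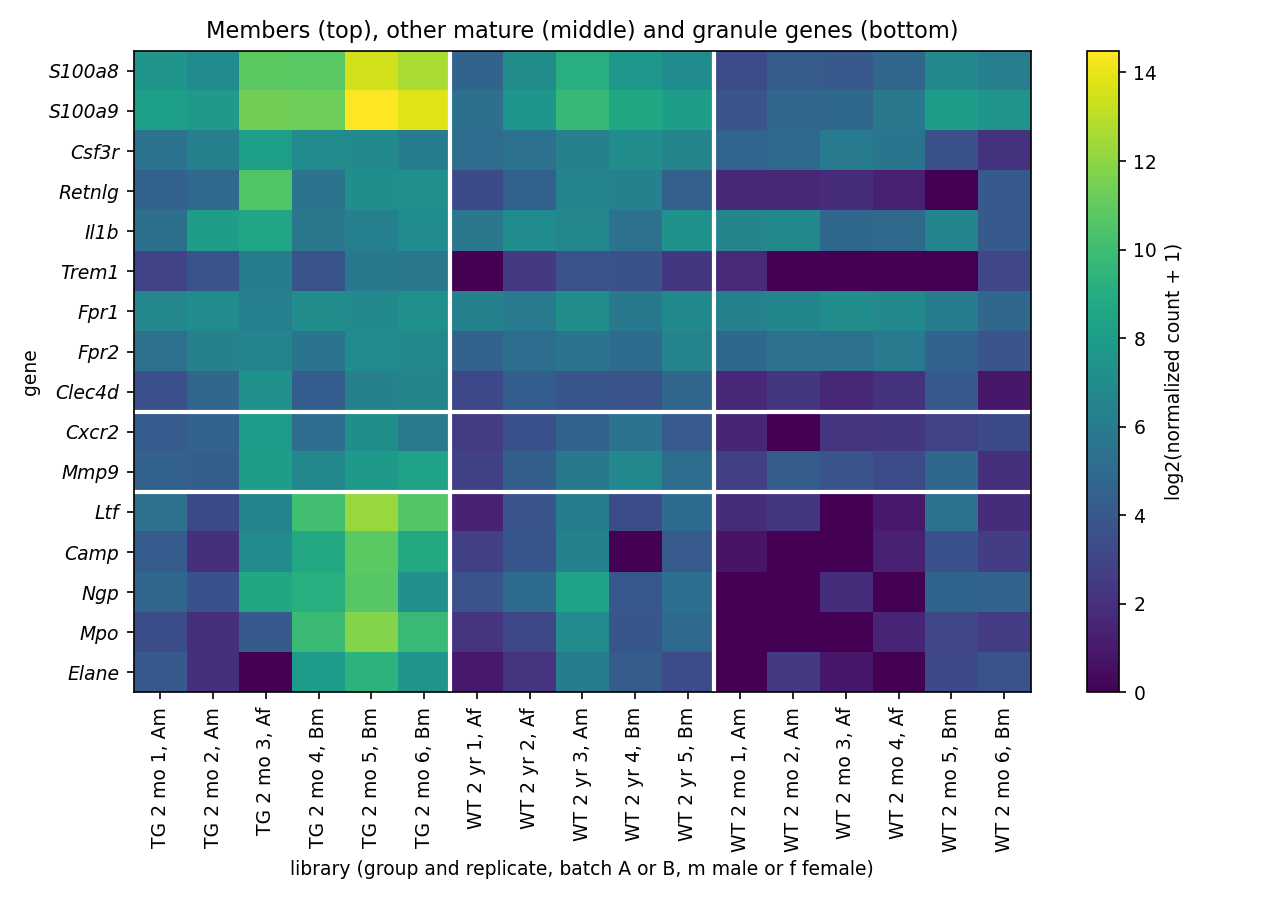
Colour gives log2(normalized count + 1) of the 9 genes (top rows), of Cxcr2 and Mmp9 (middle) and of 5 granule genes (bottom) in each of the 17 libraries, with the TG_2mon, WT_2year and WT_2mon groups from left to right and batch and sex under each column. TG_2mon replicates 3 to 6 are bright for S100a8 and S100a9, and replicates 4 to 6 for the 5 granule genes. TG_2mon replicate 3 is also bright for Retnlg, Clec4d, Cxcr2 and Ngp, and dark for Mpo and Elane.

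Genes that work with the 9 were counted by list, to be read against the 2.89% of all tested genes that were called higher and the 3.83% called lower in TG_2mon against WT_2mon livers. Of 8 calprotectin receptors and adaptors, Cd36 (log2 fold change 2.17 ± 0.28 SE, limma adjusted p = 0.000252), a scavenger receptor for fatty acids that hepatocytes also express, and Cd14 (1.54 ± 0.43, adjusted p = 0.0425), a co-receptor of TLR4, rose in TG_2mon against WT_2mon livers. The median of this list was 0.43, and Tlr4 itself had -0.06 ± 0.33. Cd36 was also called with age, at 1.87 ± 0.29 (adjusted p = 0.0139). Of the other S100 genes none of 7 tested passed, and S100a10, an annexin partner, had the smallest p at -1.35 (adjusted p = 0.0913).

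Of 11 tested genes of the G-CSF axis, 1 passed: Cebpe, a transcription factor of granule formation, fell by 2.13 ± 0.49 on the log2 scale (limma adjusted p = 0.0138). It averaged 113 ± 122 in TG_2mon and 224 ± 172 normalized counts in WT_2mon livers (SD, n = 6 each). That is 1 of 11, where 6.71% of all tested genes passed in either direction, so the count is near the background. In WT_2year livers Cebpe averaged 216 ± 133 (SD, n = 5). Which cells made the Cebpe RNA was not tested. Csf3, which encodes G-CSF, was listed at 0 in all 17 libraries. In the interleukin-1 axis 2 of 12 tested genes passed: Il1r2, the decoy receptor, rose by 3.99 ± 0.72 (adjusted p = 0.00269), having reached a mean of 10 in the transgenic group alone, and the co-receptor gene Il1rap fell by 1.09 ± 0.16 (adjusted p = 0.000699).

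Of the 12 TREM and C-type lectin partners, 3 rose in TG_2mon livers and none fell, with a list median of 1.35. Pglyrp1, a peptidoglycan-binding granule protein and reported TREM1 ligand, rose by 3.37 ± 0.64 on the log2 scale (limma adjusted p = 0.00390). Clec5a, a myeloid lectin, rose by 3.14 ± 0.75 (adjusted p = 0.0176). Trem3 rose by 3.18 ± 0.84 (adjusted p = 0.0319), but it entered the test through the transgenic group alone, with means of 46.6 in TG_2mon, 6.79 in WT_2year and 1.39 in WT_2mon livers. The adaptor gene Tyrobp had 0.46 ± 0.37 and did not pass. Among genes listed as formyl peptide receptor relatives and ligands, 1 of 6 tested passed, Cxcr2 at 3.72 ± 0.62 (limma adjusted p = 0.00148). Cxcr2 encodes a chemokine receptor and is counted again below among the other mature neutrophil genes. Fpr3, Fpr-rs3 and Fpr-rs4 were listed at 0 in all libraries. The other resistin family genes, Retn, Retnla and Retnlb, summed to at most 4.78 normalized counts in TG_2mon, 6.32 in WT_2year and 2.65 in WT_2mon livers, too low to test.

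Other mature neutrophil genes rose in 13 of 23 tested cases and none fell, with a list median of 1.56, where 2.89% of all tested genes rose. Of the 13, Padi4, Stfa2l1, BC100530, Il1r2 and Gm5483 reached a mean of 10 in the transgenic group alone, so these 5 could enter the test only if they were high there. The 4 with the smallest p were the stefin-like genes Gm5483 (log2 fold change 5.55 ± 0.84 SE) and Stfa2l1 (5.09 ± 0.78), the surface glycoprotein gene Cd177 (5.19 ± 0.83) and Cxcr2. The stefin genes are near-identical copies in a cluster, and reads may be split between them. Of 14 neutrophil granule genes 8 rose and 1, Cebpe, fell, with a list median of 4.18, where 2.89% of all tested genes rose and 3.83% fell. The collagenase gene Mmp8 (6.03), Chil3 (5.51), the lactoferrin gene Ltf (5.38) and Lcn2, which encodes another specific granule protein (4.77), were among them. Lcn2 averaged 31161 normalized counts in TG_2mon and 718 in WT_2mon livers, where Ltf averaged 1290 and 9.20. Which cells made the Lcn2 RNA was not tested. Of 5 tested attractants Icam1, an endothelial adhesion receptor (1.63 ± 0.30), and Cxcl1, a CXCR2 ligand (3.62 ± 1.04, adjusted p = 0.0456), rose. Against WT_2mon livers, WT_2year livers had no call in the mature list (median 0.81 over 23), the granule list (1.72 over 14) or the TREM and lectin list (0.83 over 12).

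Markers of other cells were read from the same libraries. Of 10 monocyte markers 1 passed in TG_2mon against WT_2mon, F13a1 (3.24 ± 0.71, limma adjusted p = 0.0105). The list summed to 13686 to 54474 normalized counts in TG_2mon, 16782 to 49105 in WT_2year and 10347 to 31721 in WT_2mon livers. Fn1 alone held 9690 to 52554.5, 13228 to 46777 and 8890 to 29486 in the same 3 groups. These sums thus mostly reflect Fn1 and say little about the other monocyte markers. Of 12 Kupffer cell markers 1 passed, the scavenger receptor gene Marco (3.97 ± 0.41, adjusted p = 3.85e-05), with sums of 10208 to 79734 in TG_2mon, 13297 to 49436 in WT_2year and 12538 to 25204 in WT_2mon livers. These counts, 1 of 10 and 1 of 12, are near the 6.71% of all tested genes that passed in either direction. Among the 8 tested erythroid markers Slc4a1, Hbb-bs and Hbb-bt rose, where 2.89% of all tested genes did. The list was split, with 5 of 8 log2 fold changes above 0. None was called lower, but 2 were lower at an unadjusted limma p under 0.05. Means were lower in TG_2mon than in WT_2mon livers for Hba-a1 (4470 and 18301), Hba-a2 (8293 and 18183) and Alas2 (2211 and 3778). The erythroid list had sums of 23316 to 1592787 in TG_2mon, 14385 to 96629 in WT_2year and 16446 to 201859 in WT_2mon livers. No defining marker of the monocyte or Kupffer lists was at 0 in every library of a group, and Epb42 alone of the erythroid list was at 0 in all WT_2mon libraries. The part of these cells in the differences above was not tested. No gene passed among the tested dendritic (5), eosinophil, basophil and mast cell (1), platelet (4), T and NK cell (8), cell division (8) and hepatocyte (7) markers. The hepatocyte markers, which check the labelled tissue, summed to 1980557 or more in each TG_2mon, 2680538 or more in each WT_2year and 2970449 or more in each WT_2mon library. Of 6 tested B and plasma cell markers Ighm rose (1.93), while the other 5 had log2 fold changes below 0, none past the adjusted threshold and 4 at an unadjusted p under 0.05, and the list median was -1.11. With age Ighm was called at 3.27 ± 0.42 (adjusted p = 0.00660).

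The genes whose pattern over the 17 libraries was most like that of the 9 were named by Pearson's r with the mean z-score of the members' log2 values, as a description with no test, since the points share groups, batches and size factors. They were Mmp8 (0.951), Il1r2 (0.929), Tmem154 (0.925), Gm5483 (0.924), Stfa2l1 (0.917), Mmp9 (0.908), Cd177 (0.899), Icam1 (0.896), Cxcl1 (0.896) and A530064D06Rik (0.896). The members' own r with that mean ran from 0.516 for Fpr1 to 0.935 for Clec4d.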

How the data were processed

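Liver RNA of 17 libraries was analysed from a deposited table of normalized counts. The authors divided counts by a size factor per library, which makes the deposited values a normalized signal per gene, per the file headers and the submitters' processing notes, which name STAR 2.5.3a, Salmon 0.6.0, DESeq2 and mm10 without their roles. Annotation and strand setting are not given in the sources used here. Library sums ran from 28077001 to 44543936 and the 10 highest genes took 17.8% to 27.5%. Of the low values 60.4% to 73.0% lay within 0.1 of a whole read, so reads were not recovered and the depth is unknown.

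Values were taken as log2(normalized count + 1) for the 14588 genes with a mean of at least 10 over all libraries and fitted with limma 3.58.1 (R 4.3.3) by group, batch and sex, with trended variances, all 17 libraries sharing one spread, and p-values adjusted over all genes. The script was tested on simulated data. The authors' deposited tables of 2 comparisons (DESeq2 with batch and sex, per the file headers) hold log2 fold changes, a score (fold change over its standard error), and p-values, and were used as an alternative. The alternatives were other pseudocounts (0.5 and 10), filters (a mean above 0, or of at least 1), covariates, scalings, single batches, males alone, robust variances, and each library left out.

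The members and all lists were chosen with earlier results of these data known. Named beside the 9 genes are, in each list, up to 4 called genes by smallest p or otherwise the gene with the smallest p, and the 10 genes most like the members; Tlr4, Tyrobp, Csf3, Ly6g, Mpo, Elane, Mmp9, Ngp and Camp, and list members named for the low-value filter or because they were at 0, were added by role after their values were seen. Coordinates are from GENCODE M21 (GRCm38, the build that mm10 names), and sequences from RefSeq (GRCm38.p6). Protein sequences were not used here. One result on the erythroid list is not reported here.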

Additional observations from a re-analysis of the deposited data

How the results depend on the processing

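Of 647 single-gene values under an alternative, 609 kept their direction and their side of the threshold, 13 passed where the reported one did not, 14 no longer passed and 11 reversed. The count of 6 genes higher in TG_2mon against WT_2mon was 2 in batch A alone (S100a9 and Clec4d) and 3 in batch B alone (S100a8, S100a9 and Csf3r), each with fewer libraries, and 5 to 6 with a library left out. The count of 0 for WT_2year against WT_2mon was 3 in the authors' deposited table and 0 to 0 with a library left out; for TG_2mon against WT_2year the count of 0 was 1 in batch B alone and 0 to 2 with a library left out. Reversals were seen for Fpr1 in TG_2mon against WT_2mon in batch A alone (-0.10), and in WT_2year against WT_2mon in batch A alone for Fpr1 (-0.22) and Fpr2 (-0.33), and without a library for Fpr1 (-0.15 to 0.39 on the log2 scale, negative without WT_2year replicate 3 or 5 or WT_2mon replicate 6). In TG_2mon against WT_2year, Csf3r reversed in batch B alone (-0.17) and in males alone (-0.32), and Il1b in batch B alone (-0.11), in males alone (-0.11) and without TG_2mon replicate 3 (-0.28; range -0.28 to 0.71). The log2 S100a8 to S100a9 ratio of TG_2mon against WT_2year was -0.0297 with no strata in the permutation and -0.0591 to 0.0806 with a library left out. The interaction with batch gave no member at a pseudocount of 10 either. The causes were not tested.

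Same-numbered libraries of different groups did not deviate together throughout: 13 of 16 pairs correlated over 0.1, and 7 of 16 after batch and sex (-0.32 to 0.38). With the replicate number as a block, 7 genes passed in TG_2mon against WT_2mon (Fpr2 added, at 1.53), and none in the other comparisons. Scaling to equal library sums moved the median of all genes to 0.14 (TG_2mon) and 0.13 (WT_2year) against WT_2mon and left the members' counts unchanged; of all called genes, 56.3% and 85.0% were then higher, against 43.0% and 66.7%. Group sizes of 5 and 6 and unknown depth limit what could be detected for Trem1, with values near 0.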
